A study of Mus musculus with 6 samples.

Results

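The transcripts examined here belong to the integrated stress response, to serine and one-carbon synthesis and to the unfolded protein response of the endoplasmic reticulum (ER), and were measured in LT-HSCs, long-term blood stem cells. The 10 members are a list of gene symbols, drawn up with earlier results of these data known and with no threshold on their values: Atf4, Ddit3 and Trib3 as regulators, Asns, Psat1, Phgdh, Shmt2 and Mthfd2 as biosynthetic targets of Atf4, and Hspa5 and Xbp1 for ER stress. All 10 were found among the 23235 genes of the table, and all 10 had a mean of at least 1 FPKM (fragment counts scaled to transcript length and sequencing depth), the minimum for a test, which 11532 genes met. The cells were sorted from bone marrow of C57BL/6 mice, 2 months old and either wild type (WT) or Hmces knockout, and each genotype has 3 labelled libraries, whereas the design text of the series speaks of duplicates. All 6 labelled libraries were used, and whether the 3 of a genotype are separate biological samples is not described, so each n = 3 counts libraries. HMCES protects abasic sites in single-stranded DNA, and the study asks how its loss affects stem cells under stress. The nature of the Hmces allele, the sorting gates and whether mice were pooled are not described in the sources used here, and every library title in both genotypes has an unexplained tag of 13 bp.

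The integrated stress response begins with kinases that sense lack of amino acids, lack of haem, double-stranded RNA or misfolded ER proteins and phosphorylate the initiation factor eIF2alpha. General translation then slows while the Atf4 mRNA is translated more, so Atf4 mRNA need not follow Atf4 protein. Atf4 activates genes for amino acid synthesis and transport, for tRNA charging and for mitochondrial folate metabolism. ER stress acts through the same kinase arm and through separate arms, in which Ern1 splices Xbp1 mRNA and Atf6 is cleaved, that raise chaperones such as Hspa5. Blood stem cells keep protein synthesis low and are known to be sensitive to these pathways. Gene-level FPKM cannot tell spliced from unspliced Xbp1 mRNA.

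The promoters of Asns and Hspa5 are printed because each holds the classical element of its arm, and those of Phgdh and Mthfd2 because their transcripts differed in the direction opposite to Asns. Each run covers 250 bases before and 50 bases after the annotated start, 5′ to 3′ on the strand of the gene, from RefSeq on build GRCm38.p6. Capitals mark a match to a searched motif, and the windows of Phgdh and Mthfd2 hold none. The windows are chr6:7693160-7693459 on the minus strand for Asns, chr2:34771840-34772139 on the plus strand for Hspa5, chr3:98339920-98340219 on the minus strand for Phgdh and chr6:83317555-83317854 on the minus strand for Mthfd2.
Asns: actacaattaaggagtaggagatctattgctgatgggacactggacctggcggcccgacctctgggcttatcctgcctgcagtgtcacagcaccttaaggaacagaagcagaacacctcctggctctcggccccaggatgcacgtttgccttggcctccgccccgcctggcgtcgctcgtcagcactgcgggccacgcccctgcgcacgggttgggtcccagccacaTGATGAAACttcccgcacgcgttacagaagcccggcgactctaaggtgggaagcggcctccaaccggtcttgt
Hspa5: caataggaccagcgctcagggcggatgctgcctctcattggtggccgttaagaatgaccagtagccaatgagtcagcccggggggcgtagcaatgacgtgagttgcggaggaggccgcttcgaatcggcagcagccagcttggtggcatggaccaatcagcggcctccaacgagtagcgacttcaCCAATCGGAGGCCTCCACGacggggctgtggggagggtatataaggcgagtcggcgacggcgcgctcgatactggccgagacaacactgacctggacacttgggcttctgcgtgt
Phgdh: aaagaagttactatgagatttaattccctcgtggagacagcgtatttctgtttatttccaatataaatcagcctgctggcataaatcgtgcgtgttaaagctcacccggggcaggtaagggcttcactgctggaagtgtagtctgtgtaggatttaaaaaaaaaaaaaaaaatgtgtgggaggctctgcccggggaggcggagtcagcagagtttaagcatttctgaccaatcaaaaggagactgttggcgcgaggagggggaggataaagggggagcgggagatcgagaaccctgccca
Mthfd2: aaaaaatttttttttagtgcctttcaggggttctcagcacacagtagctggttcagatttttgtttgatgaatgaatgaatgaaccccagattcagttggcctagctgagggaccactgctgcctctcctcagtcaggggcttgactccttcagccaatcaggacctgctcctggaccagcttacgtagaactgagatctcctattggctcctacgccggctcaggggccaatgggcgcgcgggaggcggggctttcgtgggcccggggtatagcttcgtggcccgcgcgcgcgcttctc

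The C/EBP-ATF response element, searched as TGATGNAAN on both strands, was found in the promoters of Asns and Trib3, 2 of the 10 members, and in 4.50% of 27025 genes with a promoter in the reference. In Asns it lay from 23 to 15 bases before the start (TGATGAAAC), and in Trib3 it lay from base 14 to base 22 after the start and reads TTTACATCA on the strand of the gene. The ER stress response element, searched as CCAAT and CCACG with 9 bases of any kind between them, was found in Hspa5, from 65 to 47 bases before the start, and in 0.137% of genes. The second element of this kind, ATTGG and CCACG with 1 base between them (in 0.0444% of genes) and the unfolded protein response element TGACGTGG (in 0.714%) were found in 0 of the 10 members. These matches are descriptions of letters in a window of 300 bases, and elements elsewhere in a gene were not searched.

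The targeted gene matched the labels, and estimated depth varied between libraries. Depth was estimated at 9700000, 13000000 and 14300000 fragments in WT replicates 1 to 3 and at 9400000, 11100000 and 9200000 in knockout replicates 1 to 3. Between 11069 and 11448 genes reached 1 FPKM. Hmces, listed as 8430410A17Rik, was read between 39.5 and 45.4 FPKM in wild-type libraries and between 0.222 and 8.95 FPKM in knockout libraries, 12.8% of the WT mean. Knockout replicate 2 was the outlying library on principal component 1. Of the genes that define LT-HSCs, Kit was at 117 ± 2.46 FPKM in wild-type and 118 ± 20.7 in knockout cells, Ly6a at 231 ± 21.7 and 311 ± 48.8, Procr at 26.8 ± 5.63 and 23.6 ± 9.51, Hlf at 9.88 ± 1.33 and 10.6 ± 0.264, and Mecom at 5.81 ± 1.12 and 5.56 ± 2.47 (SD, n = 3). Slamf1 was lower, at 3.46 ± 1.47 and 2.43 ± 1.12 FPKM, and Fgd5 and Hoxb5 had means below 1 FPKM in each genotype. Cd34, Flt3 and Cd48, whose surface products are low or absent on LT-HSCs and mark multipotent progenitors, were read at 487, 137 and 180 FPKM in wild-type and at 471, 141 and 279 FPKM in knockout cells. In bulk libraries, fewer cells of a type and less RNA per cell cannot be told apart.

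The largest separation among the members lay within the Atf4 targets. Asns was higher in every knockout library than in any WT library, Phgdh, Shmt2 and Mthfd2 were lower in every knockout library, and Atf4 itself, Ddit3, Trib3, Psat1, Hspa5 and Xbp1 overlapped between the genotypes. None of the 10 was called by limma at an adjusted p under 0.05 over all genes tested, where 13 of 11532 genes, 0.113%, were called. Hmces itself, with a log2 fold change of -3.23 (SE 0.71), was not called either (limma adjusted p = 0.289). Its SE exceeded that of every member, at most 0.38, so Hmces does not show how large a difference in a member would be called. The lack of a call alone does not show the lack of a difference. The groups did not overlap for 4 of 10 members, 1 higher and 3 lower, against 15.8% of all genes tested, 7.47% higher and 8.34% lower. At an unadjusted p under 0.05, 3 members passed, Asns, Phgdh and Mthfd2, against 9.16% of all genes. Over the 8 members of the Atf4 arm the median log2 fold change was -0.20 with a range from -0.73 to 0.98, and for the 2 ER stress members it was -0.05, beside -0.01 over all genes tested, of which 48.1% had a positive and 51.9% a negative value. Every log2 fold change is knockout minus WT of FPKM + 1, a scale that understates differences of low genes.

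**Figure D1:**
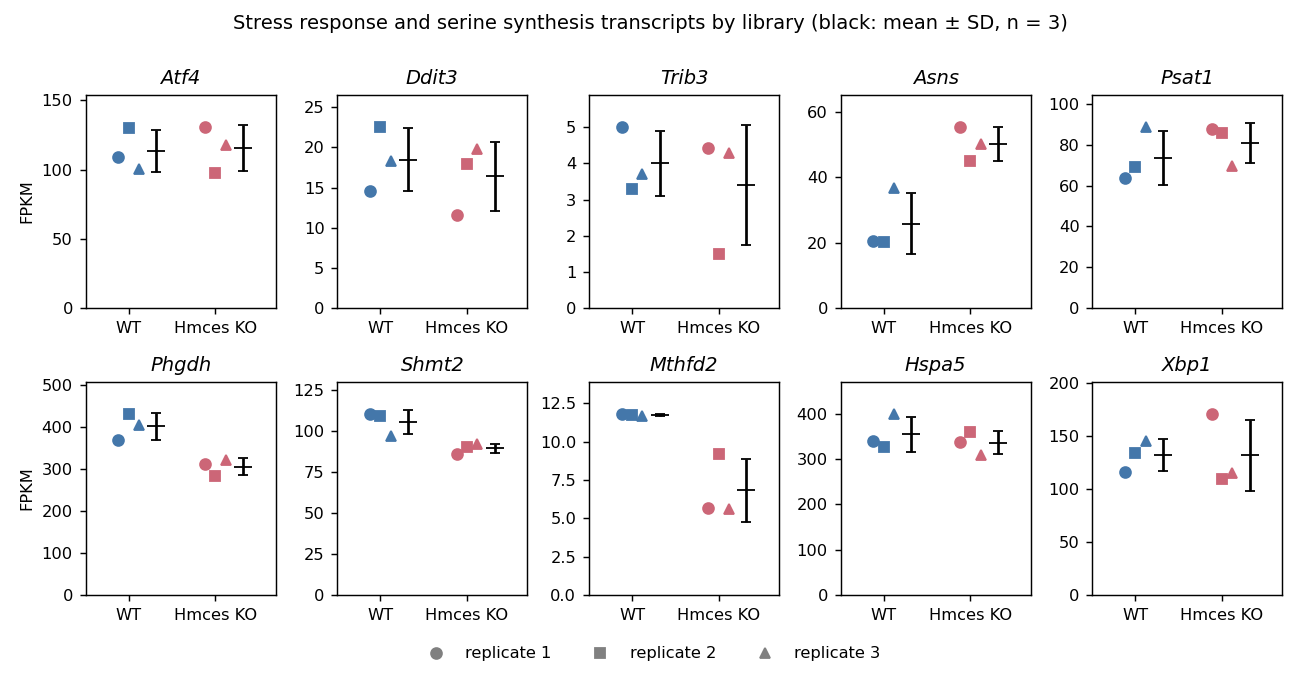
FPKM of the 10 transcripts (vertical axes from 0, each gene on its own scale) in the 3 WT libraries (blue) and the 3 Hmces knockout libraries (red), with marker shapes for replicates and black bars for mean ± SD. Asns separates upwards in the knockout, Phgdh, Shmt2 and Mthfd2 separate downwards, and the other 6 genes overlap.

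Atf4, the transcription factor that carries the response, did not differ in mRNA level beyond the spread of the libraries. It was read at 109, 130.1 and 101 FPKM in WT replicates 1 to 3 and at 131, 97.6 and 118 FPKM in knockout replicates 1 to 3. The highest and the lowest values both came from knockout libraries. The means were 113 ± 15.3 and 115 ± 16.7 FPKM (SD, n = 3 each), a log2 fold change of 0.03 with a 95% interval from -0.33 to 0.38 (limma adjusted p = 0.974).

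Ddit3, which encodes the stress factor CHOP and is induced by Atf4 when stress is prolonged, stood at 14.6, 22.5 and 18.3 FPKM in wild-type and at 11.6, 17.9 and 19.8 FPKM in knockout libraries. The values overlapped, with knockout replicate 1 the lowest of the 6. The log2 fold change was -0.17 (SE 0.26, limma adjusted p = 0.858). Trib3, a pseudokinase that feeds back on Atf4 and CHOP, was the lowest member, at 5.01, 3.29 and 3.72 FPKM in wild-type and 4.42, 1.49 and 4.29 FPKM in knockout libraries. Knockout replicate 2 alone lay below the WT range, with an estimated 30 fragments against 72 to 97 in the other libraries. For Trib3 the log2 fold change was -0.26 with an interval from -1.14 to 0.63 (limma adjusted p = 0.862), the widest interval among the members.

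Asns encodes asparagine synthetase, the enzyme that makes asparagine from aspartate and glutamine, and is a classical Atf4 target. Its level was 20.6, 20.2 and 36.6 FPKM in wild-type libraries and 55.4, 44.9 and 50.4 FPKM in knockout libraries. The 2 lower WT values lay close together, and WT replicate 3 stood between them and the knockout values. The mean was 25.8 ± 9.35 FPKM in wild-type and 50.2 ± 5.26 FPKM in Hmces knockout cells (SD, n = 3 each), a ratio of 1.94. The log2 fold change was 0.98 (SE 0.24, interval 0.42 to 1.54, unadjusted p = 0.0037), and limma's adjusted p over all genes was 0.324. Relative to Atf4 mRNA in the same library, Asns was at 0.190, 0.155 and 0.364 in wild-type and at 0.424, 0.460 and 0.427 in knockout libraries. This ratio was chosen after the values were seen and is given without a test.

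Most markers of neutrophils and monocytes had higher means in knockout libraries, as Asns had, and their order within WT varied from marker to marker. Mpo, which encodes myeloperoxidase, was read at 156, 119 and 257 FPKM in WT replicates 1 to 3, so that WT replicate 3 was highest for Mpo as well as for Asns. In knockout libraries Mpo was at 1215, 1476 and 787 FPKM, and its order there was not the order of Asns. Elane, the neutrophil elastase gene, was at 21.4, 3.07 and 85.5 FPKM in wild-type and at 1228, 1362 and 915 FPKM in knockout libraries. Ctsg, the cathepsin G gene, was at 36.6, 25.5 and 106 FPKM in wild-type and at 625, 541 and 467 FPKM in knockout libraries. Within WT, Mpo, Elane and Ctsg had the order of Asns. For Asns, WT replicates 1 and 2 (20.6 and 20.2 FPKM) differed by less than the estimated counting error of 3.24% to 5.24%. Only the place of WT replicate 3 as the highest is therefore resolved for Asns. Of the 23 neutrophil and monocyte markers, 22 had a positive log2 fold change, and Mpo, Ctsg and Hp were called higher, where 0.113% of all genes tested were called. The groups did not overlap for 18 of the 23, all higher, 78.3% against 15.8% of all genes tested. At an unadjusted p under 0.05 from limma, 19 of the 23 passed, all higher, against 9.16% of all genes tested. Their summed level ran from 7492 to 11500 FPKM in wild-type and from 20753 to 27141 FPKM in knockout libraries, with WT replicate 3 the lowest of all, and no marker of this list was at 0 in every library. Within WT, replicate 3, the highest for Asns, was the highest for 7 of the 23 markers and the lowest for 11. Hp, which encodes haptoglobin, was at 28.6, 36.4 and 25.1 FPKM and S100a8, a calprotectin subunit gene, at 4103, 5155 and 3148 FPKM in WT replicates 1 to 3, both lowest in replicate 3. The part of these cells in the Asns difference was not tested.

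**Figure D2:**
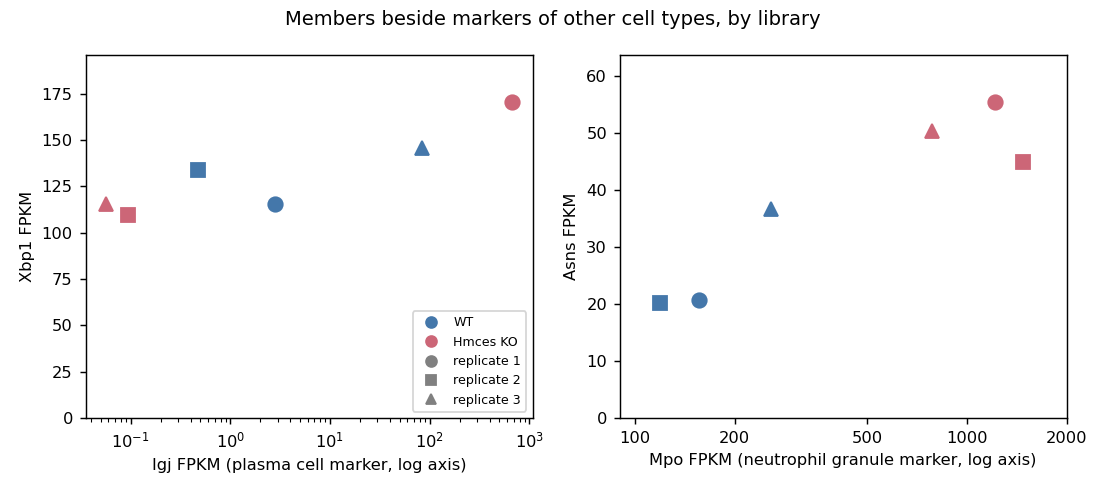
Left, Xbp1 FPKM (vertical axis from 0) against Igj FPKM (log axis); right, Asns FPKM (vertical axis from 0) against Mpo FPKM (log axis), 1 point per library, WT blue and Hmces knockout red, marker shape by replicate. Knockout replicate 1, with Igj at 675 FPKM, had the highest Xbp1 value. WT replicate 3 had the highest Mpo and Asns values of the WT libraries, as it had for Elane and Ctsg but not for Hp and S100a8.

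The serine synthesis route was not uniform. Phgdh, which encodes phosphoglycerate dehydrogenase and makes the first step from glycolysis into serine synthesis, had the highest mean over all libraries, above that of 97.1% of genes tested, although in knockout cells Hspa5 had the higher mean (336 against 305 FPKM). It was read at 368, 430 and 404 FPKM in wild-type and at 312, 282 and 320.5 FPKM in knockout libraries. The lowest WT value exceeded the highest knockout value. The means were 401 ± 31.1 and 305 ± 20.1 FPKM (SD, n = 3 each), so knockout cells held 76.1% of the WT level. Its log2 fold change was -0.39 (SE 0.11, interval -0.64 to -0.15, unadjusted p = 0.00631) and did not pass after adjustment (limma adjusted p = 0.385).

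Psat1, the aminotransferase of the next step, had values of 63.6, 68.8 and 88.6 FPKM in wild-type and of 87.6, 85.7 and 69.8 FPKM in knockout libraries. The ranges nearly coincided, and the highest value was a WT library. The log2 fold change was 0.14 with an interval from -0.24 to 0.53 (limma adjusted p = 0.813). Psph, the phosphatase that completes serine, had 34.7 ± 7.19 FPKM in wild-type and 29.5 ± 4.10 FPKM in Hmces knockout cells (limma adjusted p = 0.771). The ratio of Phgdh to Psat1 within a library was 5.79, 6.24 and 4.56 in wild-type and 3.57, 3.29 and 4.59 in knockout libraries, overlapping by WT replicate 3 and knockout replicate 3.

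Both mitochondrial one-carbon enzymes lay lower in knockout libraries. Shmt2, the mitochondrial hydroxymethyltransferase that splits serine into glycine and a folate-bound carbon, was read at 110.5, 109.5 and 97.2 FPKM in wild-type and at 86.4, 90.1 and 92.2 FPKM in knockout libraries. The genotypes were separated by the gap between WT replicate 3 and knockout replicate 3. The means were 106 ± 7.39 and 89.6 ± 2.95 FPKM (SD, n = 3 each), and the log2 fold change was -0.24 with an interval from -0.50 to 0.03 (limma adjusted p = 0.583). Mthfd2, the mitochondrial dehydrogenase and cyclohydrolase that oxidises this carbon, was read at 11.8, 11.7 and 11.6 FPKM in wild-type and at 5.66, 9.21 and 5.63 FPKM in knockout libraries. The WT libraries differed little, and knockout replicate 2 lay between them and the other knockout libraries. The means were 11.7 ± 0.067 and 6.83 ± 2.06 FPKM (SD, n = 3 each), so knockout cells held 58.3% of the WT level, with a log2 fold change of -0.73 (SE 0.25, interval -1.31 to -0.15, unadjusted p = 0.0201, limma adjusted p = 0.488). An estimated 98 to 314 fragments stood behind each value of Mthfd2, a counting error of 5.64% to 10.1%, which exceeds the spread of 0.571% between the WT libraries.

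The cytosolic counterparts and nearest relatives of these enzymes, Shmt1, Mthfd1, Mthfd1l and Mthfd2l, overlapped between genotypes. Shmt1, the cytosolic counterpart of Shmt2, was read at 65.3, 70.6 and 65.4 FPKM in wild-type and at 41.7, 71.1 and 38.5 FPKM in knockout libraries, with knockout replicate 2 above every WT value (limma adjusted p = 0.589). Mthfd1, the cytosolic enzyme of folate interconversion, had 62.9 ± 6.25 and 56.8 ± 9.42 FPKM, Mthfd1l, which releases formate in mitochondria, had 18.1 ± 1.81 and 15.8 ± 6.00 FPKM, and Mthfd2l, the close relative of Mthfd2, had 4.05 ± 1.23 and 4.01 ± 3.10 FPKM (SD, n = 3 each).

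**Figure D3:**
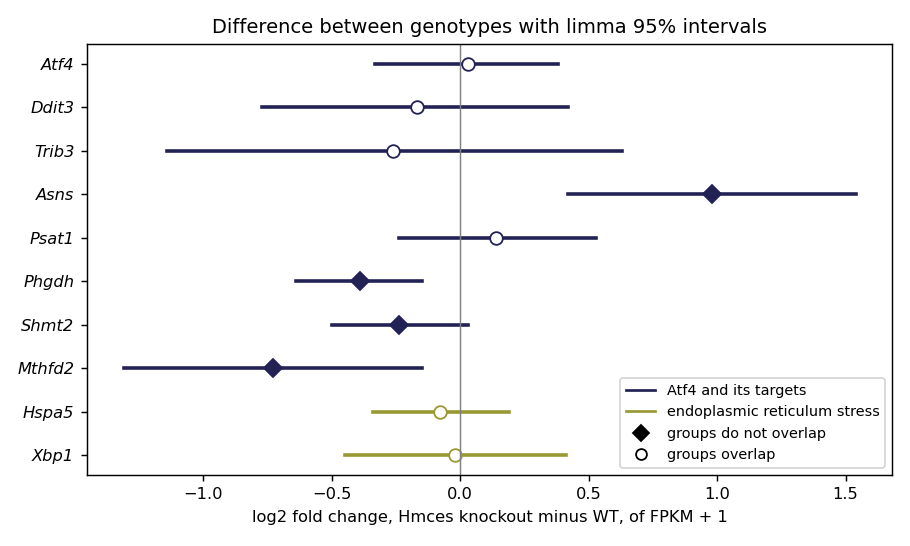
Log2 fold change of FPKM + 1 (horizontal axis, knockout minus WT) for each member with its 95% interval from limma, dark blue for Atf4 and its targets and olive for ER stress. Filled diamonds mark the 4 genes whose groups do not overlap. The intervals of Asns, Phgdh and Mthfd2 exclude 0 before adjustment over all genes, and none passes after it.

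The ER stress members showed no separation. Hspa5, which encodes the ER chaperone BiP, was read at 340.5, 326 and 399 FPKM in wild-type and at 338, 361 and 310.3 FPKM in knockout libraries. The log2 fold change was -0.08 with an interval from -0.34 to 0.19 (limma adjusted p = 0.868), so that a difference of the size seen for Asns lies outside the interval. Xbp1, the transcription factor of the Ern1 arm, was read at 116, 134 and 145 FPKM in wild-type and at 170.4, 109 and 115 FPKM in knockout libraries. Knockout replicate 1 was the highest and the other knockout libraries were the lowest, so the spread was larger in the knockout (SD 33.6) than in WT (SD 15.02). The means were 132 FPKM in each genotype, with a log2 fold change of -0.02 and an interval from -0.45 to 0.41 (limma adjusted p = 0.987).

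A plasma cell transcript was uneven over the same libraries. Igj, which encodes the joining chain of secreted antibodies, was read at 2.81, 0.480 and 83.8 FPKM in wild-type and at 675, 0.0938 and 0.0564 FPKM in knockout libraries. Within each genotype the library with most Igj also had the highest Xbp1 value. Of the other B and plasma cell markers, Ms4a1 and Tnfrsf17 were at 0 in at least 3 libraries, and the summed level of the 14 markers ran from 73.9 to 185 FPKM in wild-type and from 78.1 to 822 FPKM in knockout libraries. These sums include Igj, which made up most of the highest, 675 of 822 FPKM in knockout replicate 1. Knockout replicate 2, with little Igj and the lowest Xbp1 value of all libraries, had a sum of 135 FPKM. Xbp1 is abundant in plasma cells, and their part in its spread was not tested.

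Outside the neutrophil and monocyte list, 0 of the 68 tested markers of LT-HSCs and of other cell types that a marrow sort could hold were called by limma. At an unadjusted p under 0.05, 9 higher and 6 lower of the 68 passed, a larger share than the 9.16% of all genes tested. The groups did not overlap for 14 of the 68, 20.6% against 15.8% of all genes tested. Positive log2 fold changes were found for 6 of 14 tested LT-HSC and early progenitor markers (median -0.04), 8 of 9 B and plasma cell markers (0.24), 5 of 10 erythroid markers (-0.01), 4 of 8 megakaryocyte and platelet markers (0.02), 7 of 9 mast cell, basophil and eosinophil markers (1.63), 3 of 6 T and NK cell markers (-0.28), 0 of 10 macrophage markers (-1.12) and 2 of 2 stromal and endothelial markers (0.25). Summed levels overlapped between genotypes for all of these lists except the LT-HSC and early progenitor list, which ran from 1427 to 1517 FPKM in wild-type and from 1574 to 1650 FPKM in knockout libraries. In that list the groups did not overlap for 3 of 14 tested genes, all higher, 21.4% against 15.8% of all genes tested. Among these were Ly6a and the progenitor marker Cd48 (limma adjusted p = 0.488 and 0.324), and both are part of the sum. Gp6 of the platelet list and Bglap of the stromal list were at 0 in every library, and Cxcl12, Col1a1, Cdh5 and Kitl, also stromal or endothelial, were at 0 in at least 3 libraries, as were Ms4a2 and Epx of the mast cell list and Cd3e, Cd3g, Cd2 and Ncr1 of the T and NK cell list. The macrophage sum ran from 45.2 to 164 FPKM in wild-type and from 18.2 to 100.2 FPKM in knockout libraries, and the mast cell, basophil and eosinophil sum from 111 to 263 and from 133 to 1163 FPKM. The part of these cells in the members' values was not tested.

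By level, the members ordered as Phgdh, Hspa5, Xbp1, Atf4, Shmt2, Psat1, Asns, Ddit3, Mthfd2 and Trib3, from means over all libraries of 353 to 3.70 FPKM, a unit that is scaled to transcript length. Values of neighbours were apart in every library pair for Hspa5 over Xbp1, for Psat1 over Asns and for Mthfd2 over Trib3. Phgdh exceeded Hspa5 in 4 of 6 libraries, which are the 3 WT libraries and knockout replicate 3. The remaining neighbours overlapped.

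The kinases and regulators upstream of Atf4 were not called. Of the 21 genes of this list, all tested, 7 had a positive and 14 a negative value, the median log2 fold change was -0.09, and the groups did not overlap for 5, 23.8% of the list against 15.8% of all genes tested. By limma 0 were called, and 1 higher and 1 lower passed at an unadjusted p under 0.05, against 9.16% of all genes tested. Among the eIF2alpha kinases, Eif2ak1, the haem-regulated kinase, was lower in every knockout library, at 29.0 ± 4.35 FPKM in wild-type and 22.8 ± 0.604 FPKM in Hmces knockout cells (limma adjusted p = 0.599). Eif2ak2, which senses double-stranded RNA, had 6.80 ± 1.62 and 8.80 ± 0.561 FPKM, Eif2ak4, which senses uncharged tRNA, had 7.40 ± 1.76 and 7.52 ± 1.45 FPKM, and Eif2ak3, the ER stress kinase, had 2.61 ± 0.402 and 1.71 ± 1.74 FPKM, all with overlapping values. Impact, which restrains activation of Eif2ak4, was read at 7.48, 8.04 and 10.8 FPKM in wild-type and at 12.1, 12.9 and 21.0 FPKM in knockout libraries (limma adjusted p = 0.512). It had the most positive change of the list and Eif2b5, a subunit of the eIF2 exchange factor, the most negative, at 32.5 ± 6.28 and 21.0 ± 15.5 FPKM (limma adjusted p = 0.614). Ppp1ca, a catalytic subunit of the phosphatase that reverses eIF2alpha phosphorylation, had 535 ± 12.9 and 457 ± 41.3 FPKM, Eif2s1, which encodes eIF2alpha, had 105 ± 5.94 and 98.7 ± 10.3 FPKM, and Ppp1r15a, the stress-induced subunit of that phosphatase, had 63.2 ± 14.9 and 63.2 ± 17.5 FPKM (SD, n = 3 each).

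Other genes of the Atf4 programme did not follow Asns as a list. Of 35 genes, 22 were tested and the other 13 had a mean below 1 FPKM. Of those tested, 11 had a positive and 11 a negative log2 fold change, with a range from -0.46 to 0.90. By limma 0 were called, and 1 higher and 2 lower passed at an unadjusted p under 0.05, against 9.16% of all genes tested. The groups did not overlap for 4, 18.2% of the list against 15.8% of all genes tested. Gdf15, a secreted stress cytokine, had the most positive value, at 5.49, 2.50 and 1.59 FPKM in wild-type and 5.47, 7.59 and 5.96 FPKM in knockout libraries (limma adjusted p = 0.538). Slc1a5, a glutamine transporter, had the most negative, at 66.8 ± 12.7 and 47.9 ± 6.98 FPKM (limma adjusted p = 0.516). The most abundant of the list were Map1lc3b, an autophagosome protein gene, at 292 ± 1.10 and 294 ± 32.7 FPKM, Eif4ebp1, a translation repressor gene, at 139.5 ± 5.02 and 121 ± 14.8 FPKM, and Sqstm1, an autophagy receptor gene, at 126 ± 2.61 and 103 ± 6.51 FPKM (SD, n = 3 each).

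Cytosolic aminoacyl-tRNA synthetases, many of which Atf4 activates together with Asns, had 7 positive and 13 negative log2 fold changes among 20 tested, with a median of -0.06 and 0 called by limma. At an unadjusted p under 0.05, 0 higher and 4 lower of the 20 passed, against 9.16% of all genes tested (498 higher and 558 lower of 11532). The groups did not overlap for 5, all lower in the knockout, 25.0% of the list against 15.8% of all genes tested, or 8.34% in the lower direction. Gars, the glycyl-tRNA synthetase gene, had 101 ± 10.9 FPKM in wild-type and 70.0 ± 19.2 FPKM in Hmces knockout cells (limma adjusted p = 0.495), and Hars, for histidine, had 53.9 ± 4.51 and 70.4 ± 16.7 FPKM (limma adjusted p = 0.607), the extremes of the list. The most abundant were Dars, at 150.4 ± 17.6 and 169 ± 17.4 FPKM, Kars, at 134 ± 8.96 and 123 ± 12.9 FPKM, and Farsa, at 113 ± 8.89 and 111 ± 3.62 FPKM (SD, n = 3 each), which all overlapped between genotypes.

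The remaining serine, glycine and folate enzymes lay slightly lower at the median. Of 37 genes, 31 were tested, 11 with a positive and 20 with a negative value, and the median log2 fold change was -0.13. By limma 0 were called, and 0 higher and 1 lower passed at an unadjusted p under 0.05, against 9.16% of all genes tested. The groups did not overlap for 3, 9.68% of the list against 15.8% of all genes tested. Gcsh, a subunit of the mitochondrial glycine cleavage system, had the most negative value, at 105, 81.9 and 95.4 FPKM in wild-type and 70.6, 65.2 and 66.6 FPKM in knockout libraries (log2 fold change -0.47, limma adjusted p = 0.401). Slc46a1, a folate transporter gene, had the most positive, with 0 FPKM in 1 library of each genotype and no value above 2.66 FPKM. Paics, of purine synthesis, had 330 ± 49.3 and 301 ± 45.3 FPKM, and the methionine adenosyltransferase genes Mat2a and Mat2b had 235 ± 3.05 and 209 ± 12.2 FPKM, and 132 ± 9.98 and 149.6 ± 16.1 FPKM (SD, n = 3 each).

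Other ER stress genes were centred near 0. All 50 were tested, 19 with a positive and 31 with a negative log2 fold change around a median of -0.04. By limma 0 were called, and 3 higher and 1 lower passed at an unadjusted p under 0.05, against 9.16% of all genes tested. The groups did not overlap for 7, 14.0% of the list against 15.8% of all genes tested. Calr, the calreticulin chaperone gene, had 494 ± 31.0 FPKM in wild-type and 487 ± 64.9 FPKM in Hmces knockout cells (SD, n = 3 each). The translocon gene Sec61b had 466 ± 50.8 and 375 ± 77.0 FPKM, and Ssr4, of the translocon-associated complex, had 332 ± 20.5 and 317 ± 95.6 FPKM. The sensors Ern1 and Atf6 had 3.86 ± 0.243 and 4.39 ± 2.34 FPKM, and 3.92 ± 1.60 and 3.64 ± 0.707 FPKM. The extremes were low genes, Derl3, an ER degradation factor, at 3.27, 1.81 and 0.929 FPKM in wild-type and 7.30, 4.56 and 4.07 FPKM in knockout libraries, and Creb3l2, a membrane-bound transcription factor, at 5.01, 4.73 and 4.35 FPKM in wild-type and 0.369, 2.77 and 1.89 FPKM in knockout libraries (limma adjusted p = 0.490 for each).

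**Figure D4:**
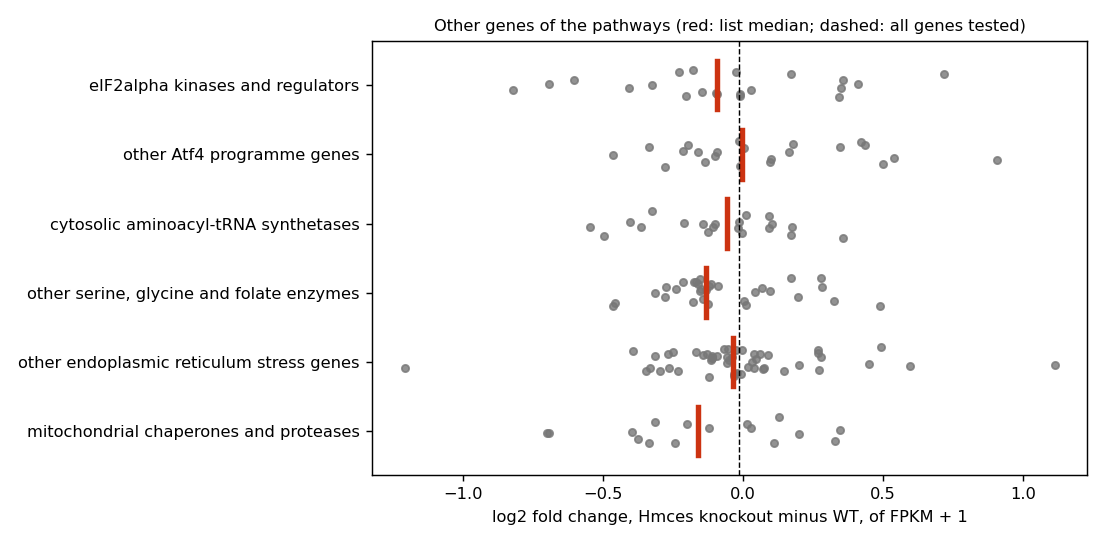
Log2 fold change of FPKM + 1 (horizontal axis, knockout minus WT) for each tested gene of the 6 pathway lists (grey points, spread vertically for legibility), with the list median in red and the median over all genes tested as a dashed line. List medians lie between -0.16 and 0, and no gene shown was called.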

How the data were processed

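RNA from 1500 sorted LT-HSCs per library was amplified by the Smart-seq2 method and sequenced as paired reads of 150 bp from 500 pg of cDNA, per the labels' protocols. The authors deposited FPKM values, 1 column per library, for 23235 genes. TopHat2 2.1.1, Cufflinks 2.2.1 and build mm9 are named in the submitters' processing notes, and the options and the gene annotation are not stated there. Counting by strand is likewise not stated, so overlapping genes are less certain. FPKM is relative to each library's mapped total, and low values are imprecise.

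Genes averaging 1 FPKM or more were tested on log2(FPKM + 1) with limma 3.58.1 in R 4.3.3 (eBayes with a variance trend, genotype as the only term, two-sided, Benjamini-Hochberg over all genes tested, threshold 0.05). The script was checked on simulated data. With 3 against 3 libraries an exact permutation test cannot give a p below 0.1, so none is given. The labels do not say whether libraries came from separate mice, so the p-values reflect only how these samples vary, which can be technical variation.

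Depth was taken from the spacing of low FPKM values with an assumed fragment length of 200 nt. Outside WT replicate 1, 20 to 28 genes of the 265 to 312 compared set each estimate, so depth is approximate. Estimated fragments per gene use the longest GENCODE transcript and cover counting error only. Promoter sequences come from RefSeq on GRCm38.p6, not the authors' build, and all 10 members had at least 1.

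The members and lists (6 pathway lists and 9 marker lists) were chosen with earlier results of these data known. From each pathway list the text names the 3 most abundant genes, the extremes of log2 fold change, called genes, direct partners of members and the upstream sensors. The rule also covers called genes and the 2 most abundant genes of each marker list, most of which are given here only within the list sums. Kit, Procr, Hlf, Mecom, Slamf1, Fgd5, Hoxb5, Flt3, Cd48, Elane, Tnfrsf17, Ms4a1 and the markers listed at 0 were chosen after their values were seen. Oma1 and Atf3, which the rule does not cover either, were also named after their values were seen. Alternatives were 2 other pseudocounts, no filter and a filter at 5 FPKM, quantile and upper quartile scaling, no variance trend, robust estimation, a replicate block and leaving out each library. An alternative without small RNA genes, and the counts of members whose groups do not overlap, were added after the data were seen.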

Additional observations from a re-analysis of the deposited data

How the results depend on the processing

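No member was called under any of the 16 alternative fits for which it could be tested (15 for Trib3, which the filter at 5 FPKM removed). Asns kept a log2 fold change between 0.84 and 1.25 (limma adjusted p from 0.127 to 0.820), Phgdh between -0.45 and -0.34 (0.274 to 0.814), Shmt2 between -0.29 and -0.20 (0.531 to 0.855) and Mthfd2 between -0.94 and -0.51 (0.409 to 0.829). Under quantile and upper quartile scaling, which can change the order of libraries, the groups of these 4 genes still did not overlap. The other settings cannot make separated groups overlap. Psat1 joined them without WT replicate 3 and Xbp1 without knockout replicate 1. Small differences changed sign. With 1 library left out, Atf4 ran from -0.07 to 0.14 and was negative without WT replicate 3 (-0.05) or knockout replicate 1. Ddit3 ran from -0.32 to 0.04 and was positive without knockout replicate 1, Trib3 from -0.45 to 0.11 and positive without knockout replicate 2, and Hspa5 from -0.13 to 0.01 and positive without WT replicate 3. Xbp1 ran from -0.22 to 0.10, positive without WT replicate 3 (0.05) or either of knockout replicates 2 and 3 (0.06 for the latter), and was at 0.01 under quantile normalization. The median of the Atf4 arm was -0.13 with a pseudocount of 5 and ran from -0.29 to -0.07 with 1 library left out, lowest without knockout replicate 3 and highest without knockout replicate 2. The number of genes called was 1 with no filter, 6 without the variance trend, 20 with robust estimation and 32 without small RNA genes, and 2 to 19 with 1 library left out, against 13. Leaving out WT replicate 2 gave 7, knockout replicate 2 gave 5 and knockout replicate 3 gave 2. The cause of these changes was not tested. With the replicate block 2 genes were called. Libraries that share a number had correlations of deviations between 0.011 and 0.080, and those with different numbers between -0.083 and 0.048. WT replicates 1 and 2 correlated best with their own number, and WT replicate 3 did not. All these correlations are small and the ranges overlap, so the numbers are not taken to pair libraries. Depth limits Trib3 most, with an estimated 30 to 97 fragments per library.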

Other observations

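Mitochondrial chaperones and proteases, whose loss of function is another trigger of the integrated stress response, lay lower in knockout libraries at the median. Of 16 genes, all tested, 7 had a positive and 9 a negative value, and the median log2 fold change was -0.16. By limma 0 were called, and 0 higher and 4 lower passed at an unadjusted p under 0.05, against 9.16% of all genes tested. The groups did not overlap for 6, all lower in the knockout, 37.5% of the list against 15.8% of all genes tested. Oma1, the protease that relays mitochondrial stress to the eIF2alpha kinases, is 1 of these 6 and also stands in the list of kinases and regulators. Hspe1, which encodes the small subunit of the mitochondrial chaperonin, was read at 286, 298 and 303 FPKM in wild-type and at 239.6, 204 and 241 FPKM in knockout libraries (limma adjusted p = 0.401). Hspd1, the large subunit gene, had 270.4 ± 32.6 FPKM in wild-type and 227 ± 10.9 FPKM in Hmces knockout cells, and Hspa9, the mitochondrial Hsp70 gene, had 209 ± 5.11 and 169 ± 24.5 FPKM (SD, n = 3 each). Lonp1, a matrix protease gene, had the most negative value of the list, at 43.0 ± 12.3 and 27.3 ± 13.6 FPKM, and Yme1l1, an inner membrane protease gene, the most positive, at 38.9 ± 7.49 and 49.4 ± 5.55 FPKM. The list median was -0.10 to -0.12 without WT replicate 2, knockout replicate 1 or knockout replicate 2.

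Genes with the C/EBP-ATF response element in the promoter window did not share a direction. Among the Atf4 arm, the Atf4 programme and the synthetases, 12 tested genes held it, 4 with a positive and 8 with a negative log2 fold change, a median of -0.12 and a range from -0.55 to 0.98. The 26 tested genes whose searched promoter lacked it had a median of -0.01. Only genes with a promoter in the reference were searched, which held for 28 of 35 listed Atf4 programme genes and 12 of 20 synthetases. Of the 50 other ER stress genes it held for 39. Asns had the highest value of the 12, followed by the stress factor gene Atf3 at 0.42. Among ER stress genes with a searched promoter, the 8 with the ER stress response element had a median of -0.03, with Derl3 highest at 1.11. The 32 without that element had a median of -0.01. These values are descriptions, given without a test.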
